A study of Mus musculus with 4 samples.

Results

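The stretch of mouse chromosome 15 that runs from upstream of Rad1 to Rxfp3 (chr15:10278401-10976000, mm9, positions counted from 1) was examined in tiled Capture-C maps of mouse embryonic stem cells (mESCs). Its members were the bin pairs with both 6.4 kb bins inside these 697.6 kb, set by position, with earlier results of these data known. Pairs that touch the bin with the Rai14 start (10643201 to 10649600) or the bin with the Amacr start (10905601 to 10912000) were left out. Of the 104196 bin pairs of the captured chromosome 15 region (10278401 to 13196800, 456 bins), 5778 met this rule and 5671 of them held a balanced value, as the outermost bin (10278401 to 10284800) was unbalanced in every library. Tiled Capture-C crosslinks, cuts and religates chromatin and enriches the ligation products of chosen regions, and read pairs that join distinct bins count how often these were ligated.

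There were 4 libraries, 1 for each of 4 groups, all from clonal E14 mESC lines. Every line carried an array of TetO and an array of LacO operators on 1 allele of chromosome 15, downstream of the interval, in a domain from which internal CTCF sites had been deleted, together with the fluorescent repressors TetR-tdTomato and LacI-eGFP and with both copies of Rad21 fused to HaloTag-FKBP. Line 1B1 had 3xCTCF cassettes in convergent orientation beside the arrays. Line 1A2 was derived from 1B1 by removing these cassettes, and 1F4 also lacked them but kept promoters of resistance genes at the arrays. These 3 lines were untreated, and the library 1B1 -cohesin came from 1B1 cells given 500 nM dTAG-13 for 2 h, which sends the tagged RAD21 to degradation. The maps did not separate the alleles, each group was a single clone, and no difference below has a replicate check. The comparison of 1B1 -cohesin with 1B1 asked what the contacts of the interval looked like without cohesin, and the comparisons among the untreated lines showed how far maps differed when the engineered sites lay elsewhere on the chromosome.

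The recovered depth was 213357 read pairs in the interval for 1A2, 278279 for 1F4, 209195 for 1B1 and 247812 for 1B1 -cohesin, which was 17.1% to 18.02% of the chromosome 15 reads of each library. A member pair held a median of 10, 12, 11 and 7 reads in these libraries. Single pairs were therefore too shallow to read, and values below are means over many pairs with a Poisson counting error of the reads, which does not cover variation between cultures or library preparations.

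Cohesin, a ring of protein subunits that holds chromatin, is thought to reel it into growing loops until it meets CTCF, a zinc finger protein bound to its motif. Domains of preferred contact form between such stops, most often between CTCF sites whose motifs point toward each other, and their borders are seen as bins that few contacts cross. Where extrusion is lost, contacts that depended on it become rarer, and contacts between chromatin of a like state can become more visible.

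The interval holds the starts of 10 protein-coding genes. Upstream of Rai14 lie Agxt2, a mitochondrial aminotransferase that uses glyoxylate, Dnajc21, a J-domain cochaperone of ribosome assembly, Brix1, an assembly factor of the large ribosomal subunit, Rad1 (chr15:10415773-10428818, plus strand), a subunit of the ring-shaped checkpoint clamp loaded at damaged DNA, and Ttc23l, a tetratricopeptide repeat protein. Brix1 and Rad1 start in 1 bin and run in opposite directions. Rai14, an actin-associated ankyrin repeat protein, ends the upstream side, and the lincRNA 4930556M19Rik starts beside it in the same bin. Between the Rai14 and Amacr bins the only protein-coding start was that of C1qtnf3 (chr15:10882087-10909905, plus strand), a secreted C1q/TNF-related protein. Amacr, a racemase of branched-chain fatty acid breakdown, Slc45a2, a transporter of pigment cells, and Rxfp3 (chr15:10963472-10967723, minus strand), the relaxin-3 receptor, follow.

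Sequence at the borders and contact anchors described below was read from NCBIM37, the assembly of the mm9 build. The letters CCANNAGNNGGC, a loose form of the CTCF core in which N is any base, were searched on both strands of the region. There were 167 matches in 137 of the 456 bins, and 38 of the interval's 109 bins (34.9%) held 1 against 30.04% of all bins, so a match by itself was common. A bin together with its neighbours held a match in 61.8% of cases, and the core CCAGAAGAGGGC alone made up 70 of the matches. All matches in the border and anchor bins that the results turn on, or in the bins next to them, are shown 5′ to 3′ on their own strand, with the matched core in capitals.
Anchor in the body of Rai14, plus strand, chr15:10512320-10512349: atctgcaggCCAGAAGAAGGCatcagatcc
Bin before the anchor between the lincRNA and C1qtnf3, plus strand, chr15:10798772-10798801: ttgcagaggCCAGAAGGGGGCagacaggat
Same bin, minus strand, chr15:10802305-10802334: cagtctacaCCACTAGGTGGCgatgtagaa
Anchor between the lincRNA and C1qtnf3, plus strand, chr15:10804581-10804610: acctacatgCCAGAAGAGGGCatcagatcc
Insulation minimum upstream of C1qtnf3, minus strand, chr15:10831039-10831068: agtcgttgcCCAACAGGTGGCactgttact
Next anchor upstream of C1qtnf3, minus strand, chr15:10849954-10849983: aattgacctCCAACAGAGGGCaccttgcag
Bin after this anchor, minus strand, chr15:10860729-10860758: gactacactCCAGAAGCTGGCccttcagtg
Anchor in the body of Amacr, minus strand, chr15:10921512-10921541: tcagacacaCCAGAAGAGGGCagcatcaga
Anchor in the body of Amacr, minus strand, chr15:10923269-10923298: tgaggaacaCCAAGAGTTGGCtgagataat
Bin before the anchor at Rxfp3, plus strand, chr15:10958415-10958444: ataacaaaaCCAGCAGTGGGCtttggagcc
Same bin, plus strand, chr15:10961066-10961095: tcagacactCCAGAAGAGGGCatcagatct
The minimum upstream of C1qtnf3 held 1 match within a bin of it, on the minus strand, and the next anchor held 2, both on the minus strand. The anchor between the lincRNA and C1qtnf3 (10803201) held 2 on the plus strand and 1 on the minus strand. The anchor bins at the 3′ end of Rad1 and in Ttc23l (10425601 and 10432001), the anchor at 10540801, the minimum beside Rai14 and the Agxt2 start bin held none of these letters within 1 bin, which says nothing about whether CTCF binds there. Within 1 bin, the Brix1 and Rad1 start bin held 2 matches and the C1qtnf3 start bin 1, all on the plus strand and not printed here.

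Insulation was measured as the log2 mean balanced signal in a square of 20 by 20 bins across a bin, relative to the mean over the region, so that a border is a minimum. Minima were called on the mean of 1A2 and 1F4 as the lowest value within 10 bins that lay at least 0.3 under the highest value up to 30 bins away on either side. Over the region 10 of 416 bins (2.4%) were called, of which 2 had their whole square in the interval. The library 1B1 had no part in the call.

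The border beside Rai14 was deeper in 1B1 -cohesin. At the bin 10649601 to 10656000, which adjoins the Rai14 start bin and lies in the lincRNA, insulation was -0.08 in 1A2, -0.15 in 1F4 and -0.15 in 1B1, against -0.89 in 1B1 -cohesin. The untreated lines lay within 0.07 of each other and the degraded library stood far below them. The difference between 1B1 -cohesin and 1B1 was -0.74 ± 0.04 (counting error), against an SD of 0.28 for the same difference over the bins of the region, and it was at the 0.481 percentile of them. The lowest difference of the region, -0.76, was at the next bin, 10656001. Differences among the untreated lines at the minimum were -0.07 (1B1 against 1A2), 0.0046 (1B1 against 1F4) and -0.07 (1F4 against 1A2).

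The border upstream of C1qtnf3 went the other way. At 10828801 to 10835200, an intergenic bin 46.9 kb before the C1qtnf3 start, insulation was -0.43 in 1A2, -0.50 in 1F4 and -0.47 in 1B1, against 0.10 in 1B1 -cohesin. The difference of 0.57 ± 0.04 was at the 97.8 percentile of the region's bins, and the untreated differences there had sizes of 0.07 or less. With the call made on 1B1 -cohesin alone, the minimum beside Rai14 was the only one in the interval, whereas 1B1 alone gave both. The border upstream of C1qtnf3 was also not called on the mean of 4 libraries, nor with squares of 15 bins, where the minimum lay at 10796801. Of the interval's 69 bins with whole squares, 20 were lower by 0.3 or more in 1B1 -cohesin and 12 were higher, compared with 63 and 64 of 416 bins in the region, and no bin of the region passed 0.3 in any comparison of untreated lines. The SD of the difference was 0.35 over the interval and 0.28 over the region.

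Around the Rad1 end the differences were smaller. At the Brix1 and Rad1 start bin insulation was -0.42 in 1A2, -0.38 in 1F4 and -0.31 in 1B1, against -0.39 in 1B1 -cohesin, so that the degraded library lay among the untreated ones. At the bottom of that trough (10425601) the values were -0.44, -0.38, -0.32 and -0.49, with 1B1 -cohesin below each untreated line but nearer to 1A2 than 1A2 was to 1B1. At the last bin of the interval (10969601 to 10976000), a called minimum 1.88 kb from the Rxfp3 start whose square reaches past the interval, the values were -0.54, -0.58, -0.54 and -0.53.

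**Figure D1:**
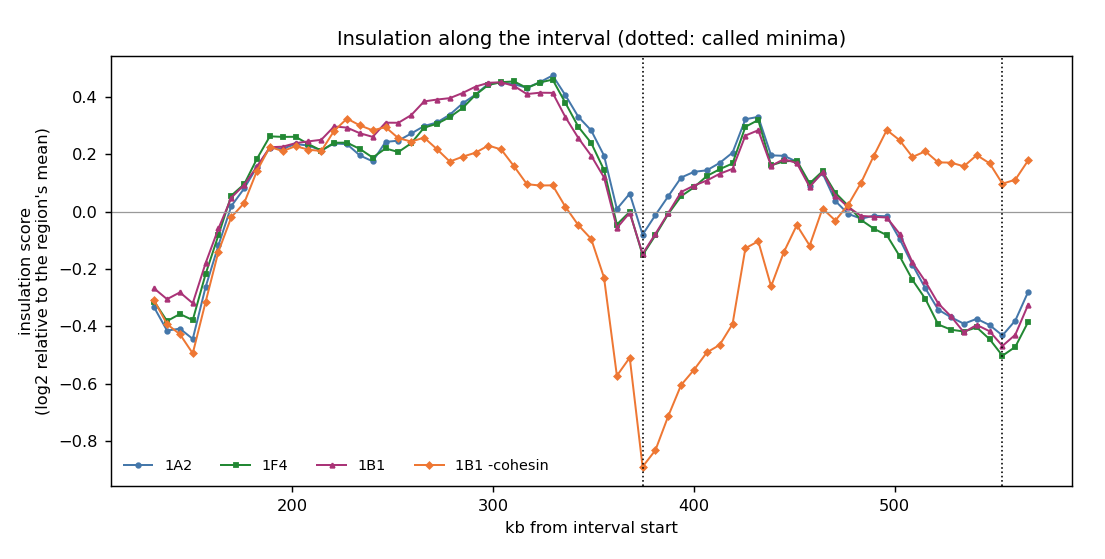
Insulation score (log2 relative to the region's mean) along the 69 bins whose squares lie in the interval, in kb from the interval start, with 1 line per library and dotted lines at the called minima. The 3 untreated lines run close together, while 1B1 -cohesin reaches -0.89 at the left minimum and 0.10 at the right one.

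Contact between the sides of the Rai14 bin, read without squares, differed in the same direction. Its pairs overlap those of the insulation squares, so it is not separate support. Balanced values were divided by their mean over the region at the same separation (observed/expected), and the 1429 pairs with 1 bin on each side, 64 to 352 kb apart, were set against equally spaced pairs on 1 side. Across the bin the mean observed/expected was 1.25 in 1A2, 1.24 in 1F4 and 1.21 in 1B1, against 0.901 in 1B1 -cohesin. On the sides, weighted to the same separations, it was 0.619, 0.605, 0.630 and 0.756. In the untreated lines, mean contact across Rai14 over these separations was thus higher than on the sides, with a log2 ratio of 1.02 in 1A2, 1.04 in 1F4 and 0.94 in 1B1, and in 1B1 -cohesin this ratio was 0.25. The difference was -0.69 ± 0.05, while the untreated lines differed by -0.08, -0.10 and 0.02. The excess across Rai14 was limited to separations over 100 kb. At 60 to 100 kb pairs across it had 0.866 in 1A2, 0.753 in 1F4 and 0.830 in 1B1, below upstream pairs (1.03, 1.01 and 1.04) and downstream pairs (1.04, 1.01 and 1.04). Much of the weight of the side means lay at 250 to 350 kb, with only 135 upstream and 65 downstream pairs against 674 across. Upstream values there were low, at 0.414 in 1A2, 0.352 in 1F4 and 0.395 in 1B1. The size of the log2 ratios thus rests on few side pairs. Over 60 to 200 kb alone the difference between 1B1 -cohesin and 1B1 was -0.77 ± 0.05.

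The sides did not change alike. Upstream of Rai14 the unweighted mean over these separations was 0.855, 0.860, 0.897 and 0.867, and the degraded library lay inside the range of the untreated ones. Downstream it was 0.878, 0.850, 0.877 and 1.13, a log2 difference of 0.36 between 1B1 -cohesin and 1B1. By separation, pairs across Rai14 had log2 differences of -0.14 for separations of 25 to 60 kb, -0.38 for 60 to 100 kb, -0.61 for 100 to 250 kb and -0.30 for 250 to 350 kb. Downstream pairs had 0.04, 0.04, 0.44 and 0.88 in these classes, whereas upstream pairs stayed between -0.13 and 0.02.

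After these values were seen, the interval was divided at the Rad1-Ttc23l anchor bins, the Rai14 bin and the minimum upstream of C1qtnf3 into 4 blocks, so the following values are a description of the same map and not separate support. Block A (10278401 to 10425600) holds the Agxt2, Dnajc21, Brix1 and Rad1 starts. Block B (10438401 to 10643200) holds the Ttc23l start and the Rai14 body, and block C (10649601 to 10828800) holds the lincRNA body and no protein-coding start. Block D (10835201 to 10976000) holds C1qtnf3, Amacr, Slc45a2 and Rxfp3.

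Between blocks B and D, block C had another preferred partner in 1B1 -cohesin. Its contact with block B at 25 to 600 kb had an observed/expected of 1.44 in 1A2, 1.42 in 1F4 and 1.35 in 1B1, against 0.864 in 1B1 -cohesin, a log2 difference of -0.65 ± 0.03. Its contact with block D was 0.721, 0.683, 0.717 and 1.16, a difference of 0.69 ± 0.03. In each untreated line C was in more contact with B than with D, and in 1B1 -cohesin it was in more contact with D. The contact between the end blocks A and D, the highest of all block pairs in the untreated lines, was 1.66, 1.67, 1.76 and 1.41, a difference of -0.32 ± 0.05. The other 7 pairs of blocks differed by -0.18 to -0.0030, and between untreated lines the pairs differed by at most 0.11 in size.

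**Figure D2:**
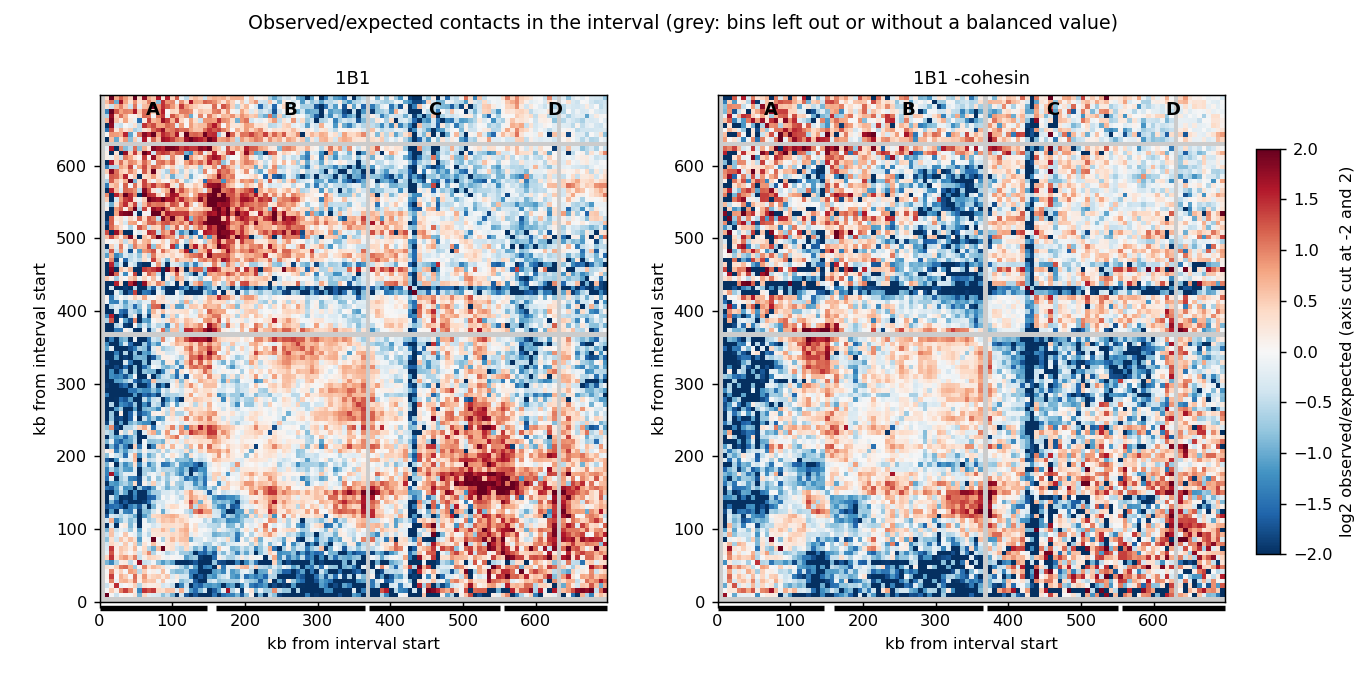
Log2 observed/expected of every member pair in 1B1 and in 1B1 -cohesin, with both axes in kb from the interval start, the blocks A to D marked, and pairs without reads at the dark blue end of the scale. The red field between B and C in 1B1 has a mean observed/expected below 1 in 1B1 -cohesin (0.864), and the field between C and D goes from blue to pale red. The part strongest in 1B1, at the A-B edge against the C-D edge, stays above expected in 1B1 -cohesin. There the Ttc23l anchor with the minimum upstream of C1qtnf3 has 1.70.

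**Figure D3:**
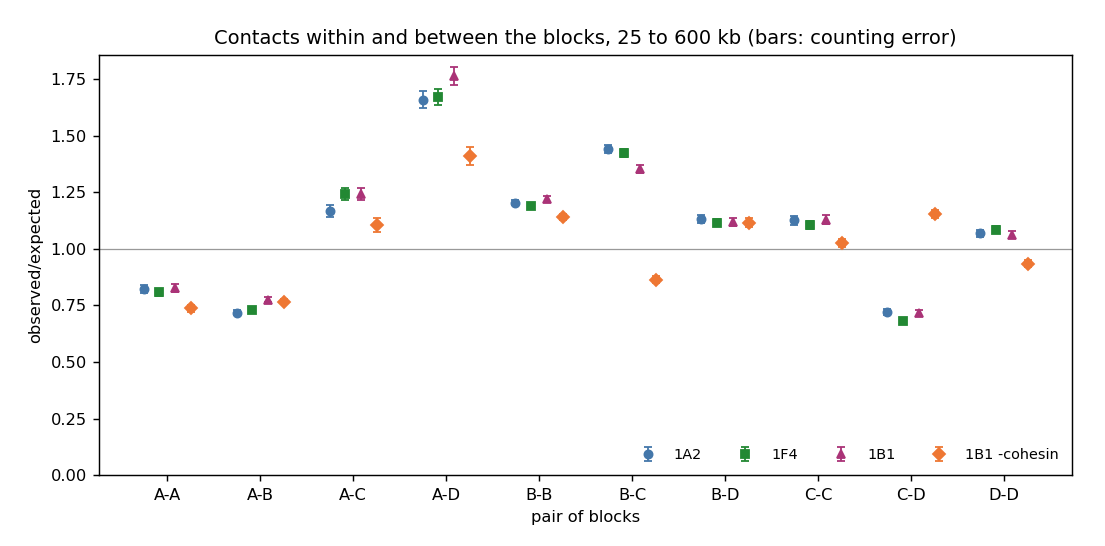
Mean observed/expected of the 10 pairs of blocks at 25 to 600 kb, 1 point per library with its counting error. The B-C point of 1B1 -cohesin (0.864) lies under those of the untreated lines (1.35 to 1.44) and its C-D point (1.16) above them (0.683 to 0.721), whereas B-D overlaps in all 4 libraries.

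The edges of the blocks were also used as viewpoints of 3 bins. From the anchor in Ttc23l (10432001), the mean observed/expected with block C was 2.47, 2.36, 2.38 and 1.57 in 1A2, 1F4, 1B1 and 1B1 -cohesin, a difference of -0.60 ± 0.10. With block B the same anchor had 1.59, 1.68, 1.59 and 1.61, where all libraries lay together. From the minimum at 10828801, contact with block B was 1.91, 1.99, 1.73 and 0.931, a difference of -0.89 ± 0.09, and contact with block C was 0.868, 0.877, 0.887 and 1.17, a difference of 0.40 ± 0.09. From the Rxfp3 start bin, contact with block C was 0.749, 0.684, 0.749 and 1.29, a difference of 0.78 ± 0.09, while within its own block D it was 1.18, 1.21, 1.22 and 1.05. With block B, across Rai14, the Rxfp3 bin had 0.967, 0.918, 0.876 and 1.07, a difference of 0.28 ± 0.09 from 1B1, the lowest untreated line. This contact across Rai14 was thus not lower in 1B1 -cohesin. The untreated lines also differed there, by -0.14 ± 0.08 for 1B1 against 1A2.

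From 3 start bins upstream of Rai14, contact across it was lower in 1B1 -cohesin. From the Brix1 and Rad1 bin, contact across Rai14 at 60 to 400 kb was 1.52, 1.47, 1.41 and 0.901 (-0.64 ± 0.19), and contact on its own side was 1.08, 1.23, 1.29 and 1.14 (-0.18 ± 0.08). From the Ttc23l start, contact across was 1.78, 1.79, 1.56 and 1.06 (-0.56 ± 0.13), and Dnajc21 had -0.41 ± 0.21. From the C1qtnf3 start, contact on its own side of Rai14 was 0.821, 0.754, 0.818 and 1.25 (0.61 ± 0.11), and for Rxfp3 it was 0.911, 0.876, 0.885 and 1.19 (0.42 ± 0.09). In both cases the degraded library was above every untreated one. Their contact across Rai14 was not lower beyond the error: C1qtnf3 had 1.09, 1.02, 0.987 and 0.931 (-0.08 ± 0.16), and Rxfp3 had 0.768, 0.581, 0.682 and 0.774 (0.18 ± 0.20). Slc45a2 had differences of 0.18 ± 0.11 on its own side and 0.13 ± 0.14 across, and the Agxt2 bin, at the edge of the map, had too few reads across Rai14 to compare.

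Among the 4 genes that frame the interval, contact was read in windows of 3 by 3 bins at the 6 pairs of start bins. Rad1 with C1qtnf3 had 1.31 in 1A2, 1.29 in 1F4 and 1.45 in 1B1, against 0.759 in 1B1 -cohesin, on 95, 109, 110 and 41 reads. Its difference of -0.93 ± 0.27 was at the 9.4 percentile of windows at that separation, whose SD was 0.72, and so lay within the spread of other windows. In windows of 5 by 5 bins it was -0.44 ± 0.17. Rad1 with Rxfp3 had 1.43, 1.40, 1.45 and 0.916 (-0.66 ± 0.26). This was at the 15.5 percentile of windows at its separation, whose SD was 0.67, and so also lay within their spread. C1qtnf3 with Rxfp3 had 0.904, 0.998, 0.886 and 0.998 (0.17 ± 0.12), at the 65.3 percentile. The pairs with Agxt2 rested on 3 to 19 reads per window, and their values in the untreated lines ranged from 0.139 to 0.449 with Rad1 and from 0.847 to 1.91 with C1qtnf3.

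Contact in the interval fell off with separation less steeply than elsewhere in the region, and of 3 bands of separation, which end at 500 kb, the longest had the largest difference between 1B1 -cohesin and 1B1. Maps were scaled to the same sum beyond neighbouring bins. The mean balanced signal at 250 to 500 kb was 45.4 in 1A2, 45.4 in 1F4 and 45.7 in 1B1, against 27.4 in 1B1 -cohesin, a log2 difference of -0.74 ± 0.02. The rest of the region had 32.3, 31.6, 32.7 and 23.9, a difference of -0.45, and 3 further intervals of the same length downstream had differences of -0.10, -0.36 and -0.24. The excess of the interval over the rest was -0.29 ± 0.03, against -0.01, -0.04 and 0.03 in the comparisons of untreated lines. At 100 to 250 kb the signal was 64.4, 63.5, 64.4 and 49.4 (-0.38 ± 0.02), and the rest of the region differed by -0.29. At 25 to 100 kb it was 171, 174, 167 and 183 (0.13 ± 0.01), and the rest differed by 0.18. This last band turned to -0.10 when every separation entered the scaling sum. With that scaling the difference was -0.61 at 100 to 250 kb and -0.97 at 250 to 500 kb.

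The slope of log10 signal on log10 separation from 50 to 500 kb was -0.55 in 1A2, -0.53 in 1F4 and -0.54 in 1B1, against -0.81 in 1B1 -cohesin. In the 3 further intervals it ran from -1.35 to -0.96 in the untreated lines and from -1.33 to -0.98 in 1B1 -cohesin. The difference between 1B1 -cohesin and 1B1 was -0.28 in the interval and -0.02, -0.08 and -0.03 in the others, of which the first holds the arrays. The interval also held the most protein-coding starts, 10 against 2, 5 and 4, and the part of gene number in these differences was not tested.

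**Figure D4:**
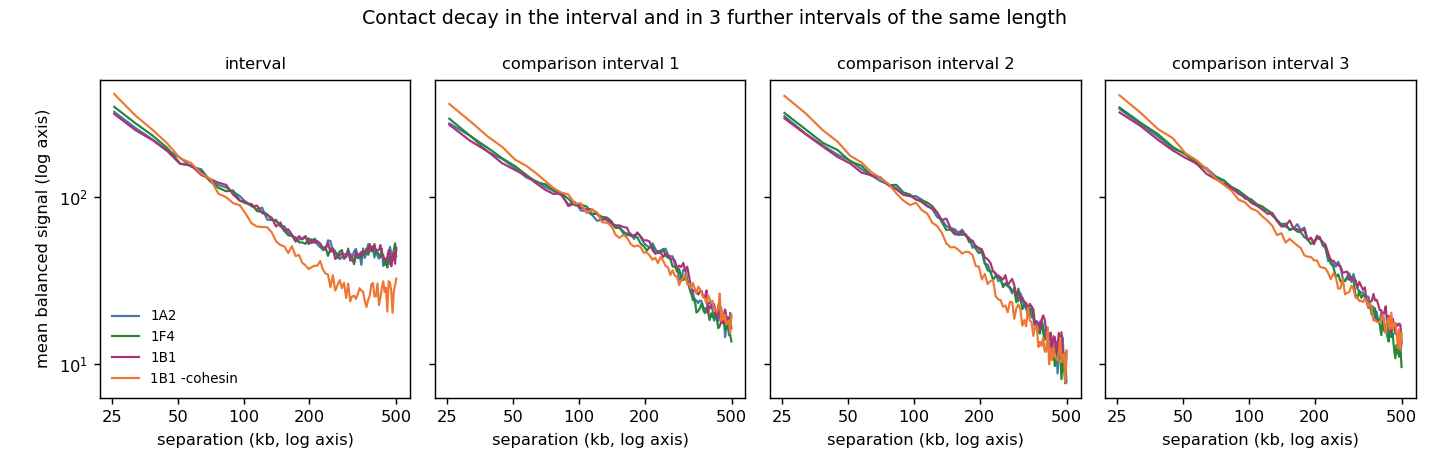
Mean balanced signal against separation (both axes logarithmic, 25 to 500 kb) in the interval and in 3 further intervals of 109 bins, 1 line per library. In the interval the untreated lines flatten, with means of 45.4 to 45.7 at 250 to 500 kb, and 1B1 -cohesin lies under them at 27.4, while in the other panels 1B1 -cohesin lies nearer to 1B1, with log2 differences of -0.36 to -0.10 in that band against -0.74 in the interval.

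Over 3 by 3 windows separated by 60 to 600 kb with at least 50 reads in both libraries, 2176 of the interval's 4073 windows could be compared between 1B1 -cohesin and 1B1. Of these, 275 were lower by 1.5-fold or more (12.6%) and 280 were higher (12.9%), compared with 7.53% lower and 11.9% higher over the whole region. Neighbouring windows share bins and are not independent. Across Rai14, 243 of 894 windows were lower and 32 higher, with a median log2 ratio of -0.23. Downstream, 20 of 602 were lower and 240 higher, with a median of 0.43, and upstream 12 of 680 were lower and 8 higher, with a median of -0.02. The median over all windows of the region was 0.04. The read minimum removes windows that were low in 1 library. With at least 20 reads in both, 857 of 3782 windows were lower and 415 higher, and with the expected value taken from the interval itself 182 were lower and 389 higher. Shares over the region were not computed for these settings, so these counts cannot be set against it.

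Between untreated lines the counts were small. For 1B1 against 1A2, 36 of 3080 windows were lower and 19 higher, with 1.05% and 1.02% over the region. For 1B1 against 1F4, 22 of 3233 were lower and 37 higher (1.46% and 1.59% over the region), and for 1F4 against 1A2, 28 of 3116 were lower and 14 higher (1.06% and 0.555%). The shares in the interval were 0.449% to 1.17%.

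The 3 lowest and 3 highest windows were picked by the ratio of 1B1 -cohesin to 1B1 itself. Their differences thus tend to be inflated by the choice, which the counting error does not cover. The lowest window joined 2 block edges, and the others named here had at least 1 end inside a block. The lowest was the 3′ end of Rad1 with the minimum upstream of C1qtnf3 (10425601 with 10828801, 403.2 kb apart), at 4.204 in 1A2, 4.83 in 1F4 and 3.999 in 1B1, against 1.201 in 1B1 -cohesin on 264, 379, 273 and 51 reads (-1.74 ± 0.24). It was followed by 2 windows between the Rai14 body and block C, 10547201 with 10790401 (2.28, 2.08, 2.13 and 0.679, a difference of -1.65 ± 0.26) and 10630401 with 10796801 (1.47, 1.73, 1.75 and 0.602, a difference of -1.54 ± 0.23). All 3 cross Rai14, and in all of them the untreated lines lay together. The highest was the lincRNA body with the start of block D (10675201 with 10854401, 179.2 kb apart), at 0.567, 0.571, 0.473 and 1.29 (1.45 ± 0.23). The next were 10726401 with 10873601 (0.836, 0.866, 0.652 and 1.64, a difference of 1.33 ± 0.31) and 10784001 with 10860801 (0.693, 0.707, 0.547 and 1.35, a difference of 1.304 ± 0.27), and all 3 link block C with block D. In all 3, 1B1 was the lowest untreated line, which enlarges the difference from it. The blocks were drawn from the same map, so the match with them is not separate support.

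Focal contacts had to hold at least 100 reads in 1A2 and in 1F4 and to exceed their surround, a frame from 5 by 5 out to 11 by 11 bins, by 1.5 times or more in each of these lines. The interval held 7 in 1584 windows tested, compared with 33 in 10522 (0.314%) over the region. In 6 of 7 the observed/expected was lower in 1B1 -cohesin than in 1B1, with a median log2 difference of -0.54, and in the 26 other contacts of the region 20 were lower with a median of -0.46. By the ratio to the ring, 5 of 7 were lower with a median of -0.30, and 19 of the 26 with a median of -0.19. The median log2 difference of observed/expected was -0.23 with 10 of 17 contacts lower when 1F4 alone made the call. The observed/expected of all 7 was lower in 1B1 than in 1A2 and in 1F4, the lines that called them. Neither 1B1 nor 1B1 -cohesin entered the call. Still, the contacts were picked as high in untreated lines, and 1B1 is untreated too. The difference between 1B1 -cohesin and 1B1 is therefore not free of the call, and contacts particular to 1B1 -cohesin could not be called.

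The strongest contact joined the anchor in Ttc23l with the minimum upstream of C1qtnf3 (10432001 with 10828801, 396.8 kb apart). Its observed/expected was 4.68 ± 0.32 in 1A2, 5.54 ± 0.32 in 1F4 and 4.31 ± 0.29 in 1B1, against 1.70 ± 0.27 in 1B1 -cohesin, and its ratio to the ring was 1.82, 2.37, 1.90 and 1.42. In every untreated line it was the highest window of the region at that separation, and in 1B1 -cohesin it was at the 91.9 percentile. The difference of -1.34 ± 0.25 rested on 52 reads in 1B1 -cohesin against 256 in 1B1. The window of this contact adjoins the lowest window named above (10425601 with 10828801) and shares most of its bin pairs. Their differences are thus readings of the same signal and not separate observations.

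The same anchor in Ttc23l reached the Amacr body (10918401, 486.4 kb) with 3.01, 3.08, 2.52 and 1.93 (-0.39 ± 0.25) and the Rxfp3 start bin (10963201, 531.2 kb) with 2.19, 2.43, 1.64 and 1.93 (0.24 ± 0.26). The contact with Rxfp3 was the only one of the 7 whose observed/expected was not lower, with an error as large as its difference, and its ratio to the ring was 1.23 in 1B1 and 2.05 in 1B1 -cohesin. The anchor at the Rad1 end reached the Rai14 body (10508801, 83.2 kb) with 2.43, 2.29, 2.19 and 1.66 (-0.40 ± 0.15).

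In block D, the anchor upstream of C1qtnf3 (10848001) met the Rxfp3 start bin 115.2 kb away with 1.76, 1.70, 1.57 and 1.07 (-0.54 ± 0.14). It met the Amacr body 70.4 kb away with 1.58, 1.72, 1.43 and 0.850 (-0.75 ± 0.14), and there the ratio to the ring went from 1.45 in 1B1 to 0.960. The contact of the Rai14 body (10540801) with 10803201, 262.4 kb away, had 2.86, 3.08, 2.30 and 1.57 (-0.55 ± 0.23), but its ratio to the ring was 1.43 in 1B1 and 1.93 in 1B1 -cohesin, as the ring was lower still. At both contacts of the anchor upstream of C1qtnf3, the printed matches lie on the minus strand at that anchor. Its partner at Rxfp3 has them on the plus strand and its partner in Amacr on the minus strand, so that neither pair of printed motifs points toward each other.

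**Figure D5:**
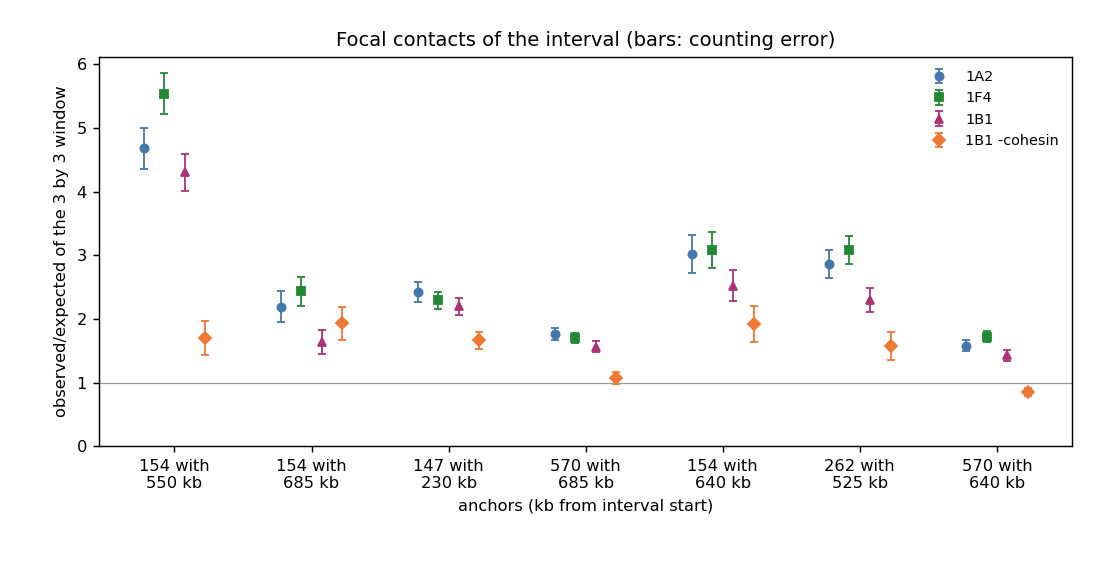
Observed/expected of the 7 focal contacts in each library with the counting error, with anchors given in kb from the interval start and ordered by their ratio to the ring in the calling lines. At the leftmost, the Ttc23l anchor with the minimum upstream of C1qtnf3, the untreated lines lie between 4.31 and 5.54 and 1B1 -cohesin at 1.70, and at the next, the same anchor with Rxfp3, the error bars of 1B1 and 1B1 -cohesin overlap.

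A pair of neighbouring bins in block C (10700801 and 10707201) had a mean observed/expected beyond 25 kb under 0.5 in every library, seen as a blue stripe in the maps. Without them the differences were -0.74 and 0.58 at the minima, -0.70 across Rai14, -0.65 for B-C and 0.70 for C-D. All observed/expected values are relative to the region's mean at the same separation in the same library, and that mean was itself lower beyond 100 kb in 1B1 -cohesin.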

How the data were processed

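Tiled Capture-C was performed on 4 mESC libraries, 1 per group, grouped by the sample labels. According to their methods and processing notes, the authors mapped read pairs to mm9 with HiC-Pro 2.11.4, kept unique valid pairs within the targets, and applied iterative correction (ICE) to bins of 6.4 kb. The deposited values are this balanced contact signal per bin pair. Balancing equalizes bin sums, so that depth and bin coverage are hidden in it.

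Here reads were recovered by solving 1 factor per bin, after which 100% of values lay less than 0.05 from a whole number of reads. Maps were scaled to equal sums beyond neighbouring bins, and expected values were means at each separation in the chromosome 15 region. With 1 library per group, no test was made and every comparison is a description. Errors are Poisson counting errors, as reads carried no molecular identifiers. Named sites followed a rule: the start bins of Agxt2, Rad1, C1qtnf3 and Rxfp3, the called minima, the 5 focal contacts with the highest ring ratio (the other 2 are described too), and the 3 lowest and 3 highest windows. Members and lists were chosen with earlier results of these data known, and blocks, edge viewpoints, start viewpoints and low bins after their values were seen. Genes came from GENCODE vM1. Functions were tested on simulated maps. Python 3.11.15, numpy 2.4.6, scipy 1.17.1, pandas 2.3.3 and matplotlib 3.10.9 were used. Alternatives covered square, window and read settings, balancing, expected values, scaling, fit range, left-out bins and the untreated line. A wild-type map was not used here.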

Additional observations from a re-analysis of the deposited data

How the results depend on the processing

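Of 117 alternative values for the main results, 72 stayed within the 95% interval of the counting error (for counts, within 1.5 times, and for slopes, within the SD among untreated lines, or that of a difference), 44 moved and 1 reversed, and for single gene pairs 20 of 22 stayed. The log2 difference of contact across Rai14 relative to its sides was -0.79 to -0.68 under the alternatives, including 1A2 or 1F4 in place of 1B1, and none was run for the contact across it alone. At the minimum beside Rai14 the insulation difference was -0.60 with squares of 10 bins, -0.62 with 15 and -0.63 for reads without balancing, and at the minimum upstream of C1qtnf3 it was 0.44 without balancing. Squares of 10 bins gave 4 minima in the interval, and a call on the mean of 4 libraries gave 1, without the border upstream of C1qtnf3, which squares of 15 bins also did not call. With maps scaled to the sum over all separations, the band differences were -0.10 at 25 to 100 kb (the reversed value), -0.61 at 100 to 250 kb and -0.97 at 250 to 500 kb, and the 25 to 100 kb value was 0.098 against 1A2 and 0.076 against 1F4. The slope in 1B1 was -0.395 over 100 to 500 kb, -0.79 over 50 to 250 kb and -0.59 without balancing. Windows lower in 1B1 -cohesin numbered 857 with at least 20 reads, 46 with 100, 63 at 2-fold, 816 with 5 by 5 bins and 182 with the interval's own expected value, and higher ones 70 with 100 reads and 53 at 2-fold. Windows past the fold in either direction, with at least 20 reads, with 100, at 2-fold, with 5 by 5 bins and without balancing, were 163, 5, 0, 22 and 24 for 1B1 against 1A2, 166, 4, 1, 17 and 17 for 1B1 against 1F4, and 123, 3, 0, 13 and 22 for 1F4 against 1A2. Fewer reads or more pairs per window change how many windows can pass, and for the other settings the cause was not tested. Shares over the whole region were not computed for these window settings or for the focal settings that follow. Focal contacts numbered 18 at a ring ratio of 1.3 (14 lower in 1B1 -cohesin), 0 at 2, 17 when called in 1F4 alone (10 lower, median difference -0.23) and 10 with the Rai14 and Amacr bins kept (6 lower, median -0.42). The B-C difference was -0.52 with the interval's own expected value, -0.74 against 1A2 and -0.72 against 1F4, and the C-D difference was 0.60 without balancing, 0.76 with the interval's own expected value and 0.76 against 1F4. Agxt2 with Rxfp3 turned to 0.17 with the interval's own expected value, Rad1 with Rxfp3 was -0.05 for the single bin pair, and Rad1 with C1qtnf3 was -0.44 in windows of 5 by 5 bins. Leaving out the change of the rest of the region is the same as the main setting for the bands and was not run again, and the single bin pair gave no value for Agxt2 with Rad1 or C1qtnf3. No paired analysis was possible because each group has 1 library. Depth limited what could be seen at single pairs, and a difference between 2 libraries was not separated from variation between cultures.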

Other observations

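Start bins also differed between untreated lines. On its own side of Rai14, the Brix1 and Rad1 bin had an observed/expected of 1.08 in 1A2, 1.23 in 1F4 and 1.29 in 1B1 at 60 to 400 kb, a log2 difference of 0.26 ± 0.08 between 1B1 and 1A2, which is larger than the -0.18 ± 0.08 between 1B1 -cohesin and 1B1. The Slc45a2 bin, a gene used in pigment cells, had 0.923, 0.788 and 1.07 across Rai14, a difference of 0.43 ± 0.13 between 1B1 and 1F4. For the contact of the Rad1 bin on its own side and that of Slc45a2 across Rai14, the difference after dTAG-13 cannot be told apart from the spread between untreated maps.

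The Agxt2 start bin met its own side of Rai14 least of all start bins, with an observed/expected of 0.297 in 1A2, 0.299 in 1F4 and 0.309 in 1B1, against 0.257 in 1B1 -cohesin. It is the first balanced bin of the map, and the part of that position in its low values was not tested.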
